A study of Mus musculus with 12 samples.

Results

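Genes that mark the steps from oligodendrocyte precursor to newly formed oligodendrocyte were followed in mouse prefrontal cortex. They were taken by name and not for their values, although earlier results of these data were known. They are 10 of the 28842 genes measured. Pdgfra, Cspg4, C1ql1, Lhfpl3 and Sox6 stand for precursors, and Gpr17, Neu4 and Bmp4 for precursors committed to differentiate. Enpp6 and Bcas1 stand for newly formed oligodendrocytes. The tissue came from wild type male C57BL/6J mice, an inbred laboratory strain. Between postnatal days 28 and 42, 1 group was injected with saline and the other with cocaine at 15 mg/kg. As adults, both groups underwent the same place preference test, with a pre-test at day 75, cocaine at 1 mg/kg before the training sessions of days 76 and 77, and test and sampling at day 78, so no library came from a cocaine-naive adult. The question was what exposure in adolescence left behind in the adult cortex. There were 6 RNA sequencing libraries per group, and the labels do not say that each came from its own mouse, so p-values describe the spread between these libraries, which may be technical.

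Oligodendrocytes wrap axons in myelin. They arise throughout adult life from precursor cells that divide in response to platelet-derived growth factor, pass through a short committed step in which receptors such as GPR17 hold back maturation, and then become newly formed oligodendrocytes that begin to make myelin sheaths. In cortex, precursors are spread evenly through grey matter, whereas myelinating cells are denser in the deep layers and in the white matter beneath. In bulk tissue, fewer cells of a type and less RNA per cell cannot be told apart.

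Depth ranged from 16.7 to 19.9 M reads per library. The tissue labels were compared with marker genes: excitatory neuron markers summed to between 40576 and 52264 normalised reads in every library, although other label fields name a mesenchymal cell line. The saline 5 library stood apart, with 11519 normalised reads of choroid plexus markers against 35.8 to 122 in the other 11 libraries. Results that rest on it are given below without it. Over all genes, limma (a linear model on log2 values) found 0 of 13016 tested genes different between the groups at an adjusted p under 0.05 and 149 at an unadjusted p under 0.05. edgeR found 0 of 16057 and DESeq2 3 of 28827 at an adjusted p under 0.05.

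All 10 markers were detected in every library. Bmp4 was the scarcest, with 19 to 55 reads per library, and Bcas1 the most abundant, with 600 to 4658. Per unit of gene length, on the FPKM scale (fragments per kilobase and M reads, computed here), Bcas1 stood at a mean of 35.1 over the 12 libraries and was above Gpr17, the next, in 12 of 12. Gpr17 (7.85) and C1ql1 (7.77) could not be put in order, since Gpr17 was the higher of the pair in 6 of 12 libraries. Lhfpl3 followed at 6.24 and Pdgfra at 4.60, with Lhfpl3 higher in 11 of 12 libraries. Neu4 (2.07), Cspg4 (1.76) and Enpp6 (1.74) were close together: Neu4 exceeded Cspg4 in 10 of 12 libraries, and Cspg4 exceeded Enpp6 in 8 of 12. Sox6 (1.22) and Bmp4 (0.858) were lowest. Bmp4 lay under the filter of a mean FPKM of 1 and so took no place in the test over all genes, leaving 9 of the 10 markers in it.

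The promoters of an early and a late marker are shown because the levels of these genes were only loosely related over the 12 libraries (r = 0.35). That value rose to 0.82 once the length slope, described further on, was removed. Each window runs from 250 bases before to 50 bases after the RefSeq start site in GRCm38.p6, on the plus strand, and the capitals mark a match to the SOX core motif ACAANG on either strand. SOX factors include SOX10, which drives oligodendrocyte genes, and SOX6, itself 1 of the markers.
Pdgfra, chr5:75152001-75152300: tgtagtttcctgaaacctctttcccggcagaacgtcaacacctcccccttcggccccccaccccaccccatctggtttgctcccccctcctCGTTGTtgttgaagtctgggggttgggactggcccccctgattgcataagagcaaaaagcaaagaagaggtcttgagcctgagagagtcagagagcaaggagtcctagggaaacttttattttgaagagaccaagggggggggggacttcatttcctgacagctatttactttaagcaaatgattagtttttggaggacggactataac
Enpp6, chr8:46986637-46986936: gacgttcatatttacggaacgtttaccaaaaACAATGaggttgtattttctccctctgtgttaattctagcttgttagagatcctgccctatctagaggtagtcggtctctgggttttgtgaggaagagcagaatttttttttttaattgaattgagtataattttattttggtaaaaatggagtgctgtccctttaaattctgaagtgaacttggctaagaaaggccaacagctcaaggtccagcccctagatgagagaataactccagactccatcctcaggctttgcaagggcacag
Each window held 1 SOX core, at position -159 from the start site in Pdgfra and at -219 in Enpp6, and neither held the E-box CAGCTG, so there was no overlap between the motifs. The SOX core was present in 41.2 percent and this E-box in 16.3 percent of 32851 mouse promoter windows of the same length, both strands read. A window was found for 7 of the 10 markers, all but C1ql1, Gpr17 and Bcas1. Those of Cspg4, Lhfpl3, Neu4 and Bmp4 held no SOX core, and Sox6 had windows with and without it.

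No marker differed between the groups by more than the spread between libraries, and the saline and cocaine values overlapped for all 10. With limma, 0 of the 9 markers tested passed an adjusted p of 0.05 and 0 passed an unadjusted p of 0.05. The share of all tested genes that passed was 0 percent at the adjusted threshold, and it was 1.14 percent at the unadjusted one. Groups that did not overlap were seen in 0 of 10 markers and in 0.0768 percent of tested genes. edgeR and DESeq2 on the recovered reads also called 0 of 10 at either threshold. Over all genes, 253 of 16057 passed the unadjusted one with edgeR and 428 of 28827 with DESeq2. Of the 10 markers, 8 were lower and 2 higher on average in the cocaine group, with a median difference of -0.13 on the log2 scale, where 46.3 percent of tested genes were lower and the median was 0.01.

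**Figure D1:**
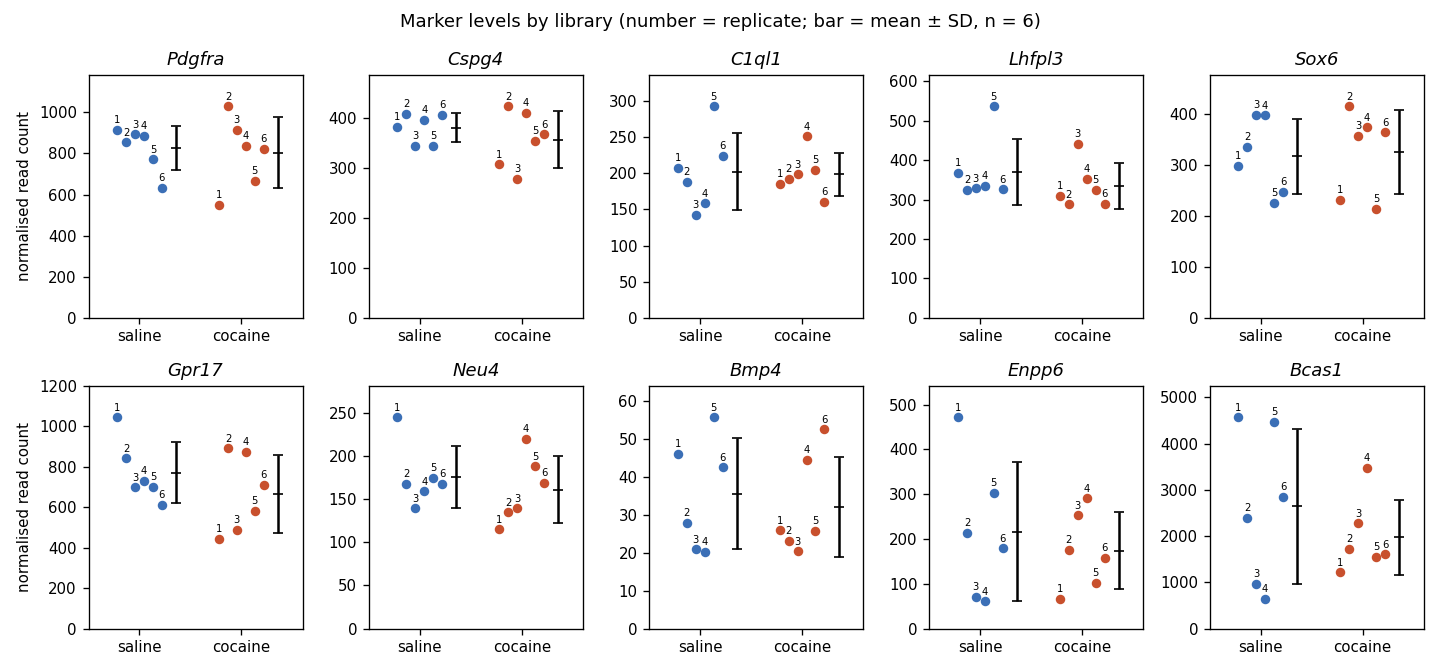
Normalised read count (vertical axes, each starting at 0) of the 10 markers in the 6 saline libraries (blue) and the 6 cocaine libraries (red), each point numbered by its replicate; bars give the mean and SD of a group. The groups overlap in every panel, and the widest spread is that of Enpp6 and Bcas1, whose saline 3 and saline 4 points lie far below saline 1.

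Pdgfra encodes the receptor for platelet-derived growth factor A, the signal that keeps precursors dividing. It lies on chromosome 5 at 75152292 to 75198215 (GRCm38, plus strand). Its normalised read count (reads divided by the size factor of the library) was 634 at lowest, 870 at the median and 914 at highest in saline, and 550, 831 and 1029 in cocaine. The cocaine group held both the lowest library, cocaine 1, and the highest, cocaine 2, and the saline values lay between them. The means were 825 ± 106 and 803 ± 172 (SD, n = 6 each). The difference, cocaine minus saline on the log2(value + 1) scale, was -0.06 ± 0.14 (SE), with a 95% interval of -0.37 to 0.25 and a limma adjusted p of 1.00 (exact permutation p = 0.729, two-sided).

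Cspg4 encodes NG2, the surface proteoglycan by which precursors are commonly stained, and lies on chromosome 9 at 56865033 to 56899870. It had the narrowest spread of the 10, with 345 to 409 normalised reads in saline (median 390) and 279 to 423 in cocaine (median 361). The 2 lowest libraries, cocaine 3 and cocaine 1, and the highest, cocaine 2, were all in the cocaine group. Cocaine minus saline came to -0.11 ± 0.11 (log2), with an interval of -0.34 to 0.13 (limma adjusted p of 1.00, exact permutation p = 0.338).

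C1ql1, a secreted C1q-like protein made by precursors, lies on chromosome 11 at 102939264 to 102946688. It ranged from 143 to 292 normalised reads in saline (median 198) and from 161 to 251.1 in cocaine (median 195). The highest and the lowest library were both saline, with saline 5 at the top. On the log2 scale the groups differed by 0.00 ± 0.16, with an interval of -0.34 to 0.35 (limma adjusted p of 1.00, exact permutation p = 0.985). The sign of so small a value turned with the scaling and with the test.

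Lhfpl3, a membrane protein gene used as a precursor marker in single-cell work, lies on chromosome 5 at 22746059 to 23275597. Saline libraries held 324 to 536 normalised reads (median 331) and cocaine libraries 288 to 442 (median 318). Saline 5 lay far above the other saline libraries, which ended at 368. The log2 difference was -0.13 ± 0.14 with all libraries, with an interval of -0.44 to 0.17 (limma adjusted p of 1.00), and -0.02 without saline 5. Of the 3213 exon bases of Lhfpl3, 567 are shared with A930003O13Rik on the other strand, a gene at a mean of 11.3 normalised reads, and the strand setting of the counting is not given in the sources used here.

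Sox6, a transcription factor that holds precursors in the undifferentiated state and is also used by interneurons, lies on chromosome 7 at 115470872 to 116038796 (minus strand). It held 226 to 398 normalised reads in saline (median 316) and 214 to 414 in cocaine (median 360). Libraries of both groups fell into a lower and an upper range, with saline 5, saline 6, cocaine 1 and cocaine 5 at or under 246 and the other 8 at 297 or above. The log2 difference was 0.03 ± 0.19, with an interval of -0.38 to 0.44 (limma adjusted p of 1.00, exact permutation p = 0.885).

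Other cells express some of these precursor genes too: fibroblasts around vessels express Pdgfra, pericytes Cspg4 and interneurons Sox6. Over the 6 fibroblast markers, the summed normalised reads were 448 to 619 in saline and 406 to 786 in cocaine. The 10 mural cell markers summed to 3450 to 4280 and 3129 to 4368, and the 5 interneuron markers to 13453 to 17663 and 13509 to 15736. Among the defining genes only Tagln, a mural gene, was at 0 reads in some library. These sums overlapped between the groups, as the 3 markers did, and their part in the marker levels was not tested.

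Gpr17, a receptor that rises as precursors commit and falls before they myelinate, is on chromosome 18. Its means were 772 ± 153 normalised reads in saline and 665 ± 192 in cocaine (SD, n = 6 each). Saline libraries ran from 614 to 1046 (median 716) and cocaine libraries from 443 to 892 (median 646). The 3 lowest values were all cocaine libraries and the highest was saline 1, yet cocaine 2 and cocaine 4 each stood above 5 of the 6 saline libraries. The log2 difference was -0.24 ± 0.18, with an interval of -0.63 to 0.15, and did not pass (limma adjusted p of 1.00, exact permutation p = 0.268). It was -0.15 without saline 1, -0.14 without cocaine 1 and -0.17 without cocaine 3. Lims2, at a mean of 239 normalised reads, shares 188 of the 5195 exon bases of Gpr17 from the other strand.

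Neu4, a sialidase found early in the lineage, lies on chromosome 1 at 94020451 to 94028334. It ranged from 139 to 245 normalised reads in saline (median 168) and from 115 to 220 in cocaine (median 154). The top value, saline 1, lay apart from the rest of its group, which reached 175. Without saline 1 the log2 difference was -0.04. With all libraries it was -0.14 ± 0.17, with an interval of -0.49 to 0.22 (limma adjusted p of 1.00, exact permutation p = 0.468).

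Bmp4, a secreted growth factor that committed precursors produce and that slows their maturation, lies on chromosome 14 at 46383520 to 46390669. Its normalised reads were 20.2 at lowest, 35.2 at the median and 55.7 at highest in saline, and 20.4, 25.8 and 52.5 in cocaine. In both groups some libraries lay at or under 27.9 and others at or above 42.45, with none between. Its log2 difference was -0.13 ± 0.31, with an interval of -0.78 to 0.52 from the fit that kept genes down to a mean FPKM of 0.1 (exact permutation p = 0.732). Counting error alone gives a coefficient of variation of 17.1 percent at this depth, against 41.3 percent observed within the groups.

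Enpp6, a choline phosphodiesterase that switches on as oligodendrocytes form, lies on chromosome 8 at 46986887 to 47096762. Saline libraries ran from 60.5 to 472 normalised reads (median 196) and cocaine libraries from 65.6 to 291 (median 167). Saline 1 was the highest of all 12 and saline 4 the lowest, so the whole range of the gene lay inside the control group. The log2 difference was -0.13 ± 0.49, with a wide interval of -1.18 to 0.92 (limma adjusted p of 1.00, exact permutation p = 0.827). It turned to 0.16 without saline 1 and to 0.03 without saline 5.

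Bcas1 encodes a protein of newly formed and early myelinating oligodendrocytes and lies on chromosome 2 at 170346991 to 170427845 (minus strand). Its RNA is also found in cells that are laying down myelin, so in bulk tissue it does not mark the newly formed step alone. Saline libraries held 637 to 4568 normalised reads (median 2623) and cocaine libraries 1216 to 3471 (median 1669). Both the 2 highest libraries, saline 1 and saline 5, and the 2 lowest, saline 4 and saline 3, were controls. The log2 difference was -0.17 ± 0.45, with an interval of -1.13 to 0.78 (limma adjusted p of 1.00, exact permutation p = 0.732), and it was 0.05 without saline 1 and 0.04 without saline 5. In the authors' deposited table the log2 fold change of Bcas1 was -0.42 and that of Enpp6 -0.31, and the adjusted p of all 10 markers was 1.00.

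**Figure D2:**
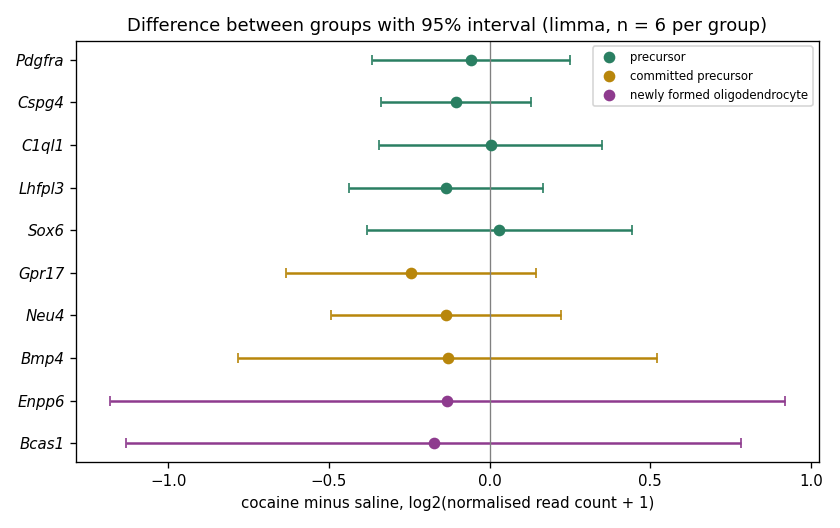
Difference between the groups on the log2(normalised read count + 1) scale (horizontal axis, cocaine minus saline) for each marker, with its 95% interval from limma, n = 6 libraries per group, coloured by step of the lineage. All 10 intervals cross 0, and they widen from Cspg4 (-0.34 to 0.13) to Enpp6 (-1.18 to 0.92).

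The markers differed far more in how much they varied inside a group than in how the groups differed. The highest library was 7.79 times the lowest for Enpp6 and 7.17 times for Bcas1. For Bmp4 the ratio was 2.76, and for the other 7 markers it lay between 1.52 (Cspg4) and 2.36 (Gpr17). The within-group SD on the log2 scale was 0.99 for Enpp6 and 0.91 for Bcas1, which placed them at percentiles 98.7 and 98.1 of all tested genes. Cspg4, at 0.18, was at percentile 35.2, and Pdgfra, at 0.27, at percentile 63.8. For Bcas1 the coefficient of variation within groups was 56.9 percent, where counting error alone gives 2.06 percent.

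To see what the late markers varied with, each marker was set against a myelin index, the mean log2 deviation of 12 genes of myelinating cells, none of them a marker used here, among them Mbp, Mog, Mag, Mobp, Cnp, Cldn11, Ugt8a, Mal, Opalin, Aspa and Ermn. The index was set up after earlier results of these data had shown a wide spread of myelin genes between libraries. Its values ran from -1.51 in saline 4 to 1.23 in saline 1, and from -1.04 to 0.96 in cocaine libraries. Mbp, the gene of myelin basic protein, showed what that range means in reads, with 14901 to 105015 normalised reads in saline and 23148 to 84790 in cocaine. Neither Mbp (-0.19 ± 0.45) nor Mog (-0.14 ± 0.45), an outer sheath protein, differed between the groups (log2 difference ± SE, limma adjusted p of 1.00 for each).

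Bcas1 and Enpp6 followed the myelin index almost one for one. Pearson's r across 12 libraries was 0.99 for Bcas1 (Spearman's rho 0.99) and 0.97 for Enpp6 (rho 0.98). Each had a permutation p of 1e-05, the smallest that these resamples can give, and an adjusted p of 5e-05 by Benjamini-Hochberg over the 10 markers. For 1 unit of the index, Bcas1 changed by 0.96 and Enpp6 by 1.03 on the log2 scale. Without the 2 libraries farthest from the median of the index, saline 1 and saline 4, r was 0.98 and 0.95. Inside the saline group r was 1.00 and 0.97, and inside the cocaine group 0.98 and 0.97. Inside the libraries tagged day 0 it was 0.99 for both, and inside those tagged day 5 it was 0.99 and 0.96. Only 0.169 percent of tested genes had an r with the index as high as that of Bcas1 and 0.545 percent as high as that of Enpp6.

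**Figure D3:**
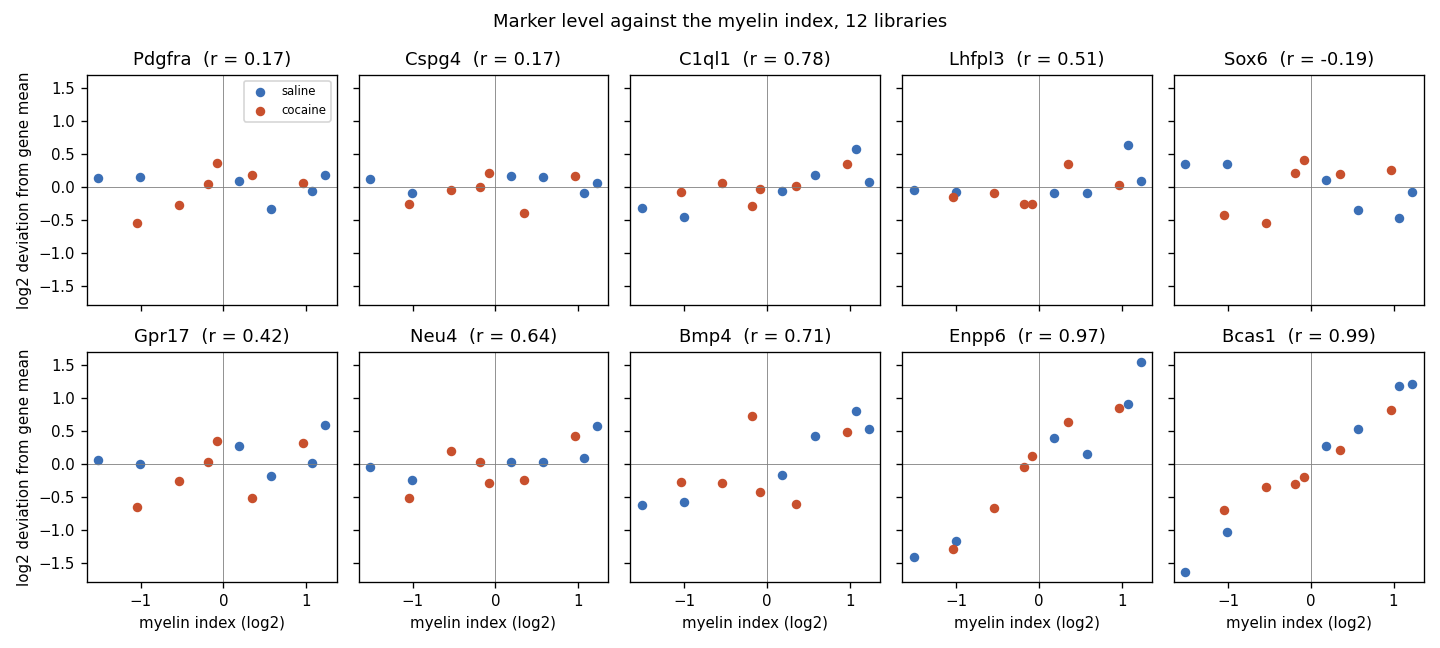
Log2 deviation of each marker from its own mean (vertical axes) against the myelin index, the mean log2 deviation of 12 myelinating genes (horizontal axes), in 12 libraries; blue points are saline and red points cocaine. Enpp6 and Bcas1 lie along a rising line in both groups (r = 0.97 and 0.99), whereas Pdgfra, Cspg4 and Sox6 show no rise over both groups (r = 0.17, 0.17 and -0.19).

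Of the 5 precursor genes, only C1ql1 passed against the index. The r with the index was 0.17 for Pdgfra (rho 0.13, permutation p = 0.603), 0.17 for Cspg4 (rho 0.23, permutation p = 0.597) and -0.19 for Sox6 (rho -0.25, permutation p = 0.553). Adjusted over the 10 markers, each of these p-values came to 0.603. Pdgfra changed by 0.05 on the log2 scale for 1 unit of the index. Sox6 ran against the index in saline (r = -0.85) and with it in cocaine (r = 0.72). Pdgfra likewise differed between saline (-0.35) and cocaine (0.69). These values rest on 6 libraries each and their difference was not tested. They are also not separate from the length slope described further on, to which the index was related differently in the 2 groups. Cspg4 had r = -0.03 in saline and 0.33 in cocaine. Without saline 1 and saline 4 the r of Pdgfra, Cspg4 and Sox6 was 0.23, 0.31 and -0.01. Inside the day 0 and day 5 tags it was 0.53 and -0.38 for Pdgfra, 0.29 and 0.30 for Cspg4, and -0.06 and -0.45 for Sox6. C1ql1 had r = 0.78 (rho 0.84, permutation p = 0.00266, adjusted p = 0.00887). Its r was 0.81 without saline 1 and saline 4, 0.84 in saline, 0.62 in cocaine, 0.73 and 0.86 inside the 2 time tags, and 0.75 without saline 5. It changed by 0.25 on the log2 scale per unit of the index. Lhfpl3 had r = 0.51 (rho 0.53, permutation p = 0.0856, adjusted p = 0.143), which fell to 0.38 without saline 5. It was 0.59 without saline 1 and saline 4, 0.52 in saline and 0.49 in cocaine, and 0.76 and 0.19 inside the time tags.

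Of the 3 genes of the committed step, Bmp4 passed. It had r = 0.71 with the index (rho 0.65, permutation p = 0.0124, adjusted p = 0.0309), at 0.44 on the log2 scale per unit. That call rested on single libraries: the adjusted permutation p rose to 0.0647 without saline 5, and r was 0.95 in saline and 0.30 in cocaine. It was 0.77 and 0.65 inside the 2 time tags and 0.62 without saline 1 and saline 4. On ranks the adjusted permutation p was 0.0643. Neu4 had r = 0.64 (rho 0.59, permutation p = 0.0263, adjusted p = 0.0526) and Gpr17 r = 0.42 (rho 0.39, permutation p = 0.173, adjusted p = 0.247). For Neu4, r was 0.63 without saline 1 and saline 4, 0.72 in saline, 0.61 in cocaine, and 0.71 and 0.53 inside the time tags. For Gpr17 it was 0.39 without those libraries, 0.34 in saline, 0.58 in cocaine, and 0.61 and 0.15 inside the time tags. In all, 4 of the 10 markers passed. Of all tested genes, 3.50 percent had an r with the index as high as that of C1ql1 and 4.73 percent as high as that of Bmp4, the weakest of the 4. Counted in either direction, 6.79 percent had one as large as that of Bmp4. A marker of another cell type moved with the index as well: of 8 astrocyte markers, all detected in every library, Gfap, named here after its value was seen, had r = 0.92 and ran from 556 to 2297 normalised reads, whereas the median r of the list was 0.53. The summed astrocyte markers were at 47569 to 58493 normalised reads in saline and 44378 to 61744 in cocaine, and their part in the marker levels was not tested.

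**Figure D4:**
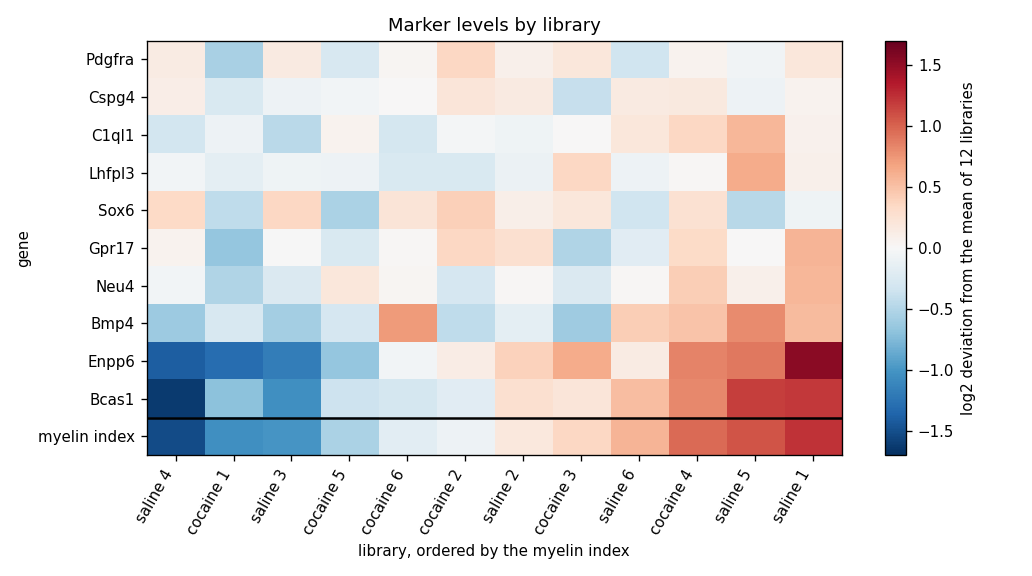
Log2 deviation of each marker (one line of tiles per gene) from its mean over 12 libraries, with the libraries ordered by the myelin index, which fills the lowest line. Enpp6 and Bcas1 pass from blue (low) at saline 4 to red (high) at saline 1 together with the index, which runs from -1.51 to 1.23, and Pdgfra, Cspg4 and Sox6 change colour in another order.

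Set beside Pdgfra in the same library, the late markers therefore covered a wide range of proportions. The FPKM of Bcas1 was 1.91 times that of Pdgfra in saline 4 and 15.4 times in saline 5, with a median of 9.69 in saline. In cocaine libraries the ratio ran from 4.47 to 11.01, with a median of 6.03. Enpp6 stood at 0.107 to 0.807 times Pdgfra in saline and 0.187 to 0.543 times in cocaine, whereas the ratio of Gpr17 to Pdgfra kept within 1.51 to 2.21 and 1.03 to 2.01. The ranges of all 3 ratios overlapped between the groups.

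Sox6 and Pdgfra moved with a different property of the libraries. In each library, the log2 deviation of all tested genes was regressed on gene length, and the slope ran from -0.08 to 0.08 log2 units per doubling of length. The first principal component of the data, which held 43.4 percent of the variance, had r = 0.98 with this slope over the 12 libraries. The myelin index had r = -0.34 with the slope. Inside the groups, Bcas1 and Enpp6, which followed the index, were related to the slope in opposite directions. Their r was -0.83 and -0.69 in saline, and 0.41 and 0.68 in cocaine. For Bmp4 it was -0.94 in saline and 0.28 in cocaine. The part of the slope in the index values inside each group was not tested. Sox6, with a gene length of 14832 bases the longest of the 10, had r = 0.95 with the slope (rho 0.89, permutation p = 2e-05, adjusted p = 2e-04 over the 10 markers). The r was 0.92 without saline 5 and cocaine 1, the 2 libraries farthest from the median, 0.99 in saline, 0.93 in cocaine, and 0.93 and 0.95 inside the time tags. Pdgfra, at 10024 bases, had r = 0.79 (rho 0.67, permutation p = 0.00155, adjusted p = 0.00775), but on ranks its adjusted permutation p was 0.0921. Its r was 0.80 without saline 5 and cocaine 1, 0.73 in saline, 0.91 in cocaine, and 0.71 and 0.94 inside the time tags. C1ql1, the shortest at 1473 bases, had the most negative value, r = -0.63 (rho -0.64, permutation p = 0.0263, adjusted p = 0.0878), though it was -0.93 in saline and -0.05 in cocaine and did not pass. Such relations were common: 14.5 percent of tested genes had an r beyond 0.9 in either direction, and 31.3 percent had one as large as that of Pdgfra. Over the 10 markers, Spearman's rho between gene length and r with the slope was 0.87, a description only, since the slope is built from length.

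Taking the slope out of both the markers and the index, a step chosen after seeing the data, raised the r with the myelin index of Pdgfra from 0.17 to 0.76 and that of Gpr17 from 0.42 to 0.74, and turned that of Sox6 from -0.19 to 0.44. Cspg4 moved from 0.17 to 0.36. The r of Bcas1 (0.99) and Enpp6 (0.98) was little changed. With the slope removed, 7 of the 10 markers passed, Neu4 being the weakest at 0.65. Of all tested genes, 8.37 percent then had an r as high as that, and 16.4 percent had one as large in either direction. The closer relation of Pdgfra and Gpr17 to the index thus rested on this step.

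**Figure D5:**
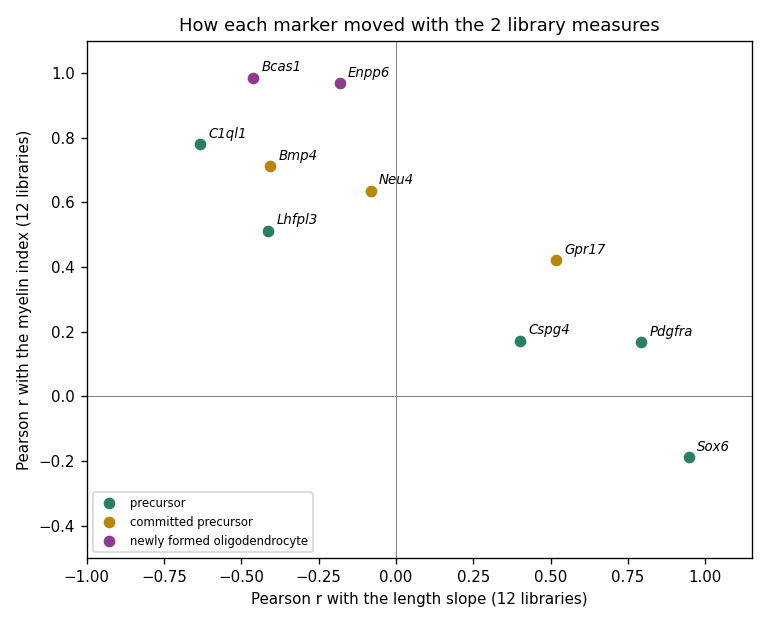
Pearson r of each marker with the myelin index (vertical axis) and with the length slope (horizontal axis) over 12 libraries, coloured by step of the lineage. Bcas1 and Enpp6 lie at the top (r of 0.99 and 0.97 with the index) and Sox6 at the far right (r of 0.95 with the slope).

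Among the 45 pairs of markers, 35 had a positive r and 10 a negative one, and 4 passed after adjustment over the 45. The share among pairs of all tested genes was not computed, so these counts are not read as a property of the markers. The closest pair was Enpp6 and Bcas1 (r = 0.94, rho 0.97, permutation p of 1e-05, adjusted p = 0.00045), with r = 0.92 without the 2 farthest libraries, 0.97 in saline, 0.90 in cocaine, and 0.95 and 0.96 inside the time tags. C1ql1 and Bcas1 followed (r = 0.82, rho 0.85, adjusted permutation p = 0.0204), with r = 0.75 without the farthest libraries, 0.85 in saline, 0.76 in cocaine, and 0.81 and 0.84 inside the time tags. Pdgfra and Sox6 had r = 0.81 (rho 0.71, adjusted permutation p = 0.0204, and 0.0980 on ranks), which fell to 0.32 once the length slope was removed. It was 0.71 in saline, 0.91 in cocaine, and 0.76 and 0.94 inside the time tags. Cspg4 and Gpr17 had r = 0.77 (rho 0.76, adjusted permutation p = 0.0353, and 0.0643 on ranks), and it differed between saline (0.12) and cocaine (0.94), a difference that was not tested. It was 0.47 without the 2 farthest libraries, and 0.84 and 0.48 inside the time tags. No pair of Pdgfra with Enpp6 (r = 0.35) or Bcas1 (r = 0.04) passed. These values depended on the length slope: with it removed from both genes, r was 0.82 with Enpp6 and 0.75 with Bcas1. Inside saline they were -0.14 and -0.34, and inside cocaine 0.83 and 0.54, a difference that was not tested.

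Outside the 10 markers, genes most like each of them over the 12 libraries were found among the tested genes by Pearson's r. For Pdgfra these were Ptprz1 (0.97), a phosphatase receptor of precursors and astrocytes, and Elovl6 (0.97). For Gpr17 they were Nfasc (0.97) and Arhgap23 (0.97). For Bcas1 they were Opalin (0.99) and Cnp (0.99), and for Enpp6 Ugt8a (0.98) and Tmem88b (0.98), of which Opalin, Cnp and Ugt8a belong to the myelin index. Sox6 was most like Zc3h12c (0.99) and Gm6768 (0.99), and 697 tested genes had an r over 0.9 with it, against 76 for Pdgfra and 3 for Cspg4. C1ql1 was most like Tmbim6 (0.95) and Papss1 (0.94), and Cspg4 most like Rpap1 (0.91) and Fbxw8 (0.90). For Lhfpl3, Zfp983 had r = 0.92, which fell to 0.65 without the 2 farthest libraries. Neu4, with Atp11a and 4933428G20Rik (0.84 each), and Bmp4, with Smc5 and Pdlim4 (0.87 each), had no gene over 0.9 in the 12 libraries. Without the 2 farthest libraries, Neu4 with Atp11a fell to 0.59, Cspg4 with Fbxw8 to 0.75 and Cspg4 with Rpap1 to 0.80. The r of Neu4 with 4933428G20Rik was then 0.87, and that of Bmp4 with Smc5 and Pdlim4 was 0.91 and 0.92. All these values are the highest of a search over the tested genes.

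Related genes of the lineage did not pass the test between the groups either. In each list that follows, 0 genes passed an adjusted p of 0.05 in either direction with limma, edgeR or DESeq2, and 0 passed an unadjusted p of 0.05 with any of them. Over all genes, the unadjusted threshold was passed by 1.14 percent with limma, 253 of 16057 with edgeR and 428 of 28827 with DESeq2. At such shares, 0 in a list this short says little about the lineage. Of all genes tested with limma, 46.3 percent were lower in cocaine. Of 12 other precursor genes, 11 were lower and 1 higher in cocaine, with a median log2 difference of -0.08 over the 11 tested; Matn4, a matrix protein, stood at -0.20 ± 0.18 and Epn2, an endocytic adaptor, at -0.08 ± 0.08. Of 10 other genes of differentiating cells, 8 were lower and 2 higher (median -0.05 over 8 tested), with Tns3, a focal adhesion protein, at -0.25 ± 0.22 and Rras2, a small GTPase, at 0.16 ± 0.11. All 12 myelinating genes were lower in mean, with a median of -0.19. The values of such genes are tied to each other through the index, so their shared sign is not independent evidence.

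Of 16 transcription factors of the lineage, 13 were lower and 3 higher (median -0.12 over 14 tested). Zfp536, a zinc finger factor, stood at -0.42 ± 0.25 and Myt1, a factor of neural and oligodendrocyte progenitors, at -0.25 ± 0.13 (limma unadjusted p = 0.0735, adjusted p of 1.00). Of 15 genes of growth signalling in the lineage (ligands and receptors of the platelet-derived, fibroblast and insulin-like growth factors and of neuregulin, with Lingo1 and Gpr37, membrane proteins that restrain differentiation), 10 were lower and 5 higher (median -0.06 over 11 tested), with Fgfr1, a receptor for fibroblast growth factors, at -0.10 ± 0.08 and Pdgfb, a ligand, at 0.07 ± 0.09. Of 24 genes of the BMP pathway, in which Bmp4 is a ligand, 13 were lower and 11 higher (median 0.01 over 19 tested). Acvr2a, a type II receptor, stood at 0.11 ± 0.09 and Id1, a target of the pathway, at -0.14 ± 0.17. The 10 cell division genes summed to only 105 to 340 normalised reads in saline and 143 to 369 in cocaine, and none reached the filter for limma; edgeR tested 6 of them and DESeq2 10.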

How the data were processed

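Prefrontal cortex RNA was sequenced in 12 libraries, assigned by treatment label to 2 groups of 6. Label fields naming a mesenchymal stem cell line and build hg38 do not match mouse cortex and were ignored; a day 0 or day 5 tag served as a covariate and for within-tag values. The authors deposited 1 table. Per the file headers its columns are library values, gene length (bases), log2 fold change, p-value and adjusted p-value. The deposited library values are a signal: although the table is named for FPKM, they are reads per gene over a size factor, without division by length. As a check, 100 percent of the values of each library were whole multiples of what 1 read is worth (tolerance 0.01 read), and reads were recovered so. The submitters' processing notes name HISAT2 2.0.5; counter, annotation and strand setting were not given in the sources used here. GENCODE M21 (GRCm38) held 28805 of 28842 gene IDs, 28041 of them with identical start and end.

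The test was limma 3.58.1 (variance trend, no covariate, two-sided) in R 4.3.3 on log2(value + 1), run on the 13016 genes whose mean FPKM, computed here from value and length, reached 1, with Benjamini-Hochberg adjustment over all of them. A fold on this scale understates the change of low genes. Exact permutation tests used all 924 splits, two-sided, and could not go below p = 0.00216; adjusted over the 10 markers their p-values were 0.984 or higher. Correlations used 100000 permutations, two-sided, adjusted over the 10 markers for each library measure and over 45 pairs. Count tests on recovered reads used edgeR 4.0.16, which called 0 genes, and DESeq2 1.42.0, which called 3. Fits were tried on simulated counts, with genes drawn independently and without the library-wide differences of these data. That checked the code and not the error rates here. The markers, the 19 gene lists and the library measures were chosen with earlier results of these data known. Named genes were the 10 markers, the 2 genes of each related list with the smallest unadjusted p, genes of myelin, and the 2 genes most like each marker; some of these are not reported here. The deviations of same-numbered libraries had r from -0.40 to 0.43, so the numbers were not taken as pairs. This check cannot exclude a pairing. Alternatives covered pseudocount, filter, scaling, variance model, weights, covariates, count tests and each library left out. Promoters are RefSeq's.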

Additional observations from a re-analysis of the deposited data

Results flagged for a closer look

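Among 24 groups of 6 libraries looked at (each marker, and the other library measures, in each treatment group), 2 held a library farther from the rest than Dixon's 95% critical ratio, where chance gives about 1 group in 20. Lhfpl3 was at 536.3 normalised reads in saline 5, and the next saline library was at 367.8, a gap of 0.796 of the group's whole range. Saline 5 is also the library with 11519 normalised reads of choroid plexus markers, and C1ql1 (292) and Bmp4 (55.7) had their highest values there too, each above the other 11 libraries; the part of that tissue in these levels was not tested. Neu4 was at 245.2 normalised reads in saline 1, and the next saline library was at 175.1, a gap of 0.663 of the range. Saline 1 also had the highest myelin index (1.23), Enpp6 (472) and Bcas1 (4568) of the 12 libraries.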

How the results depend on the processing

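Of 270 alternative values of single markers between the groups, 248 carried an adjusted p, and 0 of those were under 0.05; the other 22, all of Bmp4, had no test because the gene lay under the filter. The count of genes called was 0 in every limma and edgeR fit and 3 with DESeq2. The replicate number as a block also gave 0 called genes and a median over the markers of -0.13, though the numbers were not taken as pairs. Small differences changed sign. C1ql1 (0.00) was -0.0070 with TMM scaling, -0.017 with the length slope as a covariate (an alternative added after seeing the data), -0.023 and -0.039 with edgeR with and without a count filter, and -0.025 with DESeq2. With library weights Enpp6 was 0.046 and Bmp4 0.34, and with the myelin index as a covariate Enpp6 was 0.053. Leaving out 1 library moved the difference of Pdgfra from -0.14 to 0.045, of C1ql1 from -0.089 to 0.12, of Sox6 from -0.060 to 0.14, of Enpp6 from -0.43 to 0.16, of Bcas1 from -0.52 to 0.050 and of Bmp4 from -0.29 to 0.017. With no change of sign it moved that of Gpr17 from -0.34 to -0.14, of Neu4 from -0.23 to -0.036, of Cspg4 from -0.16 to -0.038 (without cocaine 3) and of Lhfpl3 from -0.22 to -0.023. Bcas1 and Enpp6 were larger in count tests, at -0.43 and -0.32 with edgeR. The median over the markers lay between -0.19 and -0.031 with 1 library left out and was -0.020 with library weights and -0.051 with the myelin index as a covariate. Against the myelin index, 3 to 5 markers passed when 1 library was left out, and 7 with the length slope removed, where Sox6 turned to 0.44; without 1 library Pdgfra ran from -0.11 to 0.31. Bcas1, Enpp6 and C1ql1 passed in every alternative run. With 6 libraries per group, the 95% intervals of Enpp6 (-1.18 to 0.92) and Bcas1 (-1.13 to 0.78) leave large differences undetectable; Bmp4 is limited by its 19 to 55 reads.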

Other observations

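Genes of the lists that stand around the markers were also set against the myelin index over the 12 libraries, as a description with no test; the genes named here were chosen after their values were seen. Of 14 tested transcription factors of the lineage, 5 had an r over 0.9: Olig1 (0.98) and Olig2 (0.98), which specify the lineage and are present from precursor to mature cell, Sox10 (0.98), Nkx6-2 (0.97), and Myrf (0.96), the factor that switches on myelin genes. Of all 13016 tested genes, 208 had an r over 0.9 with the index, and the 12 genes that form the index were among them. The range over libraries was narrower for Olig1, whose highest library was 2.87 times its lowest, than for Myrf, at 5.99 times. Sox5, a relative of Sox6, had r = -0.48 with the index and 0.83 with the length slope.

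Of 11 other precursor genes tested, none had an r over 0.9, and the median was 0.07. The list was mixed, running from -0.67 for Susd5 to 0.83 for Vcan. Vcan and Rlbp1 (0.77) stood above Bmp4 (0.71), a marker that passed against the index. Tns3 (0.90) and the noncoding gene 9630013A20Rik (0.94) were over 0.9 among 8 tested genes of differentiating cells, and 9630013A20Rik spanned 7.28 times between its lowest and highest library, close to Bcas1. Among 11 tested genes of growth signalling and its membrane receptors, Gpr37 (0.98), Erbb3 (0.96) and Fgfr2 (0.93) were over 0.9, whereas Pdgfb (-0.81) and Lingo1 (-0.79), which neurons express, ran against the index. Among 19 tested genes of the BMP pathway the median was -0.09, none was over 0.9, and Bmp3 stood at -0.70. The 8 excitatory neuron markers had a median of -0.57, with Slc17a7, a vesicular glutamate transporter, at -0.71, and of 8 astrocyte markers Gfap was at 0.92. All values share library scaling and depth.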
